A study of Mus musculus with 96 samples.

Results

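The 9 glycolytic enzyme genes Hk2, Pfkl, Aldoa, Tpi1, Pgk1, Pgam1, Eno1, Pkm and Ldha, together with Hif1a, were followed in liver macrophages and, beside them, in hepatocytes of the same liver study. These 10 genes were taken by symbol from the 25095 gene symbols of the deposited tables, each through its transcript with the highest mean, and all 10 exceeded 5 RPKTM in at least 3 libraries of both cell types, where 13947 macrophage and 13326 hepatocyte genes did so. RPKTM, the unit of the deposited values, is an RPKM multiplied by 10, and because it is scaled by transcript length it allows levels of different genes to be set side by side within 1 table.

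The study followed male C57BL/6J mice that carried floxed Rev-erbα and Rev-erbβ alleles (Nr1d1 and Nr1d2), with floxed Scap alleles as well in the RevScapTKO group. At 8 weeks of age they received, by vein, an adeno-associated virus with the hepatocyte promoter TBG that carried GFP (Control) or CRE (RevDKO and RevScapTKO), and then ate diet D12492, high in fat and sucrose, for 4 weeks under 12 h of light and 12 h of dark. Livers were taken at zeitgeber time (ZT, hours after lights on, lights off at ZT12) 4, 10, 16 and 22, which gave 32 groups of 3 libraries, 96 in all. A 4th genotype, ScapKO, stood in tables of its own without a Control. The study describes it as a loss of Scap in hepatocytes on the same diet, and the vector used for it is not given in the sources used here. Deletion was thus directed at hepatocytes, and the macrophage libraries came from mice whose hepatocytes were the target. Nothing in the sources used here ties a library to a single animal, so p-values measure the spread between libraries.

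Glycolysis splits glucose into pyruvate in the cytosol. Hexokinase 2 (Hk2) traps glucose, phosphofructokinase (Pfkl, the liver-type subunit) commits it to the pathway, aldolase A (Aldoa) cleaves the sugar, and triose-phosphate isomerase (Tpi1), phosphoglycerate kinase (Pgk1), phosphoglycerate mutase (Pgam1), enolase 1 (Eno1) and pyruvate kinase M (Pkm) carry the resulting trioses to pyruvate, which lactate dehydrogenase A (Ldha) reduces to lactate. Macrophages rely on these isoenzymes when activated, whereas hepatocytes hold liver-type isoenzymes such as liver pyruvate kinase (Pklr) and can run the pathway in reverse. Hif1a encodes the oxygen-labile subunit of HIF-1, a transcription factor that is destroyed when oxygen is present and that otherwise binds a short core next to many glycolytic genes. Hif1a protein is regulated mainly by its stability, which transcript levels do not show.

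Since binding of HIF-1 near the start of these genes is textbook knowledge, the bases upstream of their starts were read from RefSeq (build GRCm38.p6), and 4 windows are printed that show where the core lies in a gene at the end of the pathway, in 2 of the middle steps and in Hif1a itself. Each window holds the 250 bases before an annotated start, 5′ to 3′, and capitals mark every match to ACGTG or GCGTG on either strand. The windows lie at chr7:46845554-46845803 (Ldha), chrX:106186850-106187099 (Pgk1), chr4:150236947-150237196 (Eno1) and chr12:73907617-73907866 (Hif1a), all on the plus strand.
Ldha: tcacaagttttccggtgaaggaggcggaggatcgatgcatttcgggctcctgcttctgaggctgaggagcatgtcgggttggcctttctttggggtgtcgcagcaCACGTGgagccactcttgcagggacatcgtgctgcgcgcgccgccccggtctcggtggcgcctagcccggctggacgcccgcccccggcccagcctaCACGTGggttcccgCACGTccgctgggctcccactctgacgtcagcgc
Pgk1: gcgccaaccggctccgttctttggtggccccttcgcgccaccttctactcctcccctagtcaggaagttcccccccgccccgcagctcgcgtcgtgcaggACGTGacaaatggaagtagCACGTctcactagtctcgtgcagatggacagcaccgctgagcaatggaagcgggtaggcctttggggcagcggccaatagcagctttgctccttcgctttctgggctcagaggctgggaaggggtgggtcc
Eno1: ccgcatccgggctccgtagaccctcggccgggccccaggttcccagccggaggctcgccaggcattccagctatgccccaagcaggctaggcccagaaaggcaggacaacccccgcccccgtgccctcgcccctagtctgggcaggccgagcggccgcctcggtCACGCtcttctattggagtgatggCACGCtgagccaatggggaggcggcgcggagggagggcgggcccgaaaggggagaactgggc
Hif1a: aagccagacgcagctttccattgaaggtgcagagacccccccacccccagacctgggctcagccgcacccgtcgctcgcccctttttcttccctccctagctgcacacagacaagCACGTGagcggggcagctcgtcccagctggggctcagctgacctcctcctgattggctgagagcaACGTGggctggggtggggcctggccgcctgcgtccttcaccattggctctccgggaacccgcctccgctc
All 10 genes had a window in the RefSeq table, 16 windows in all, and 13 of these windows in 9 genes held the core, against 38.6% of all 32851 promoters of the same length. Tpi1 was the gene with none in its window. The core is short, and a match is a description of letters. In Ldha the 5 matches began 145, 144, 48, 47 and 34 bases before the start, and each of the first 2 pairs is 1 CACGTG read on both strands, the E-box that clock activators also bind. This E-box stood in 2 of the 16 windows, 1 each of Ldha and Hif1a, against 6.02% of all promoters, and AGGTCA, the motif of REV-ERB and other nuclear receptors, stood in 5 of the 16 (of Aldoa, Eno1, Pkm and Hif1a), against 14.0%. Windows of 1 gene can overlap.

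Several features of the libraries touch the values that follow. All libraries of a table hold 1 and the same set of values after quantile normalization, so their depth is unknown. The study reports a marked fall of both Nr1d1 and Nr1d2 expression in hepatocytes. In the deposited values the mean of Nr1d1 showed no such fall, with 90.7 RPKTM in Control and 138 in RevDKO hepatocytes. The cause of this gap was not tested, and values of Nr1d2 are not given here. Scap followed the labels, with 495 in Control and 209 in RevScapTKO hepatocytes. The macrophage libraries held much hepatocyte RNA. The 15 hepatocyte markers summed to medians of 98007 RPKTM (Control), 84214 (RevDKO) and 95981 (RevScapTKO) in macrophage libraries, above the 19881, 10065 and 10778 of the 14 macrophage markers. Alb took over 10% of the column sum in 3 of these libraries (Control ZT16 replicate 1, Control ZT22 replicate 1, RevScapTKO ZT22 replicate 3). In bulk samples of this kind, fewer cells of a type and less RNA per cell cannot be told apart.

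In the macrophage table, Ldha, Aldoa and Pkm stood highest and Pgk1 and Pgam1 lowest. Over the 36 libraries Ldha averaged 209 RPKTM (range 63.8 to 317), Aldoa 175 (84.4 to 410), Pkm 164 (86.6 to 311) and Tpi1 115 (58.0 to 181). Hif1a followed with 75.5 (38.8 to 123), Eno1 with 71.9 (29.9 to 175), Hk2 with 52.0 (15.7 to 105) and Pfkl with 41.2 (listed at 0 to 72.3). Pgk1 averaged 10.2 (listed at 0 to 27.1) and Pgam1 6.24 (0.233 to 18.5). The ranges of all neighbours in this order overlapped, and Ldha, Aldoa and Pkm lay within 1 SD of each other (61.5, 78.0 and 57.5 RPKTM). The low Pgk1 and Pgam1 are uncertain as levels. Both genes have processed copies elsewhere in the genome, as do Aldoa, Tpi1, Eno1, Ldha and Gapdh, and how reads shared with copies were counted is not given in the sources used here. Gapdh, which sits between Tpi1 and Pgk1 in the pathway and is abundant in most cells, had a median of only 6.95 RPKTM in this table, 3.20% of Ldha in the same library. In the separate ScapKO macrophage table its median was 629.9, or 54.7% of Ldha.

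**Figure D1:**
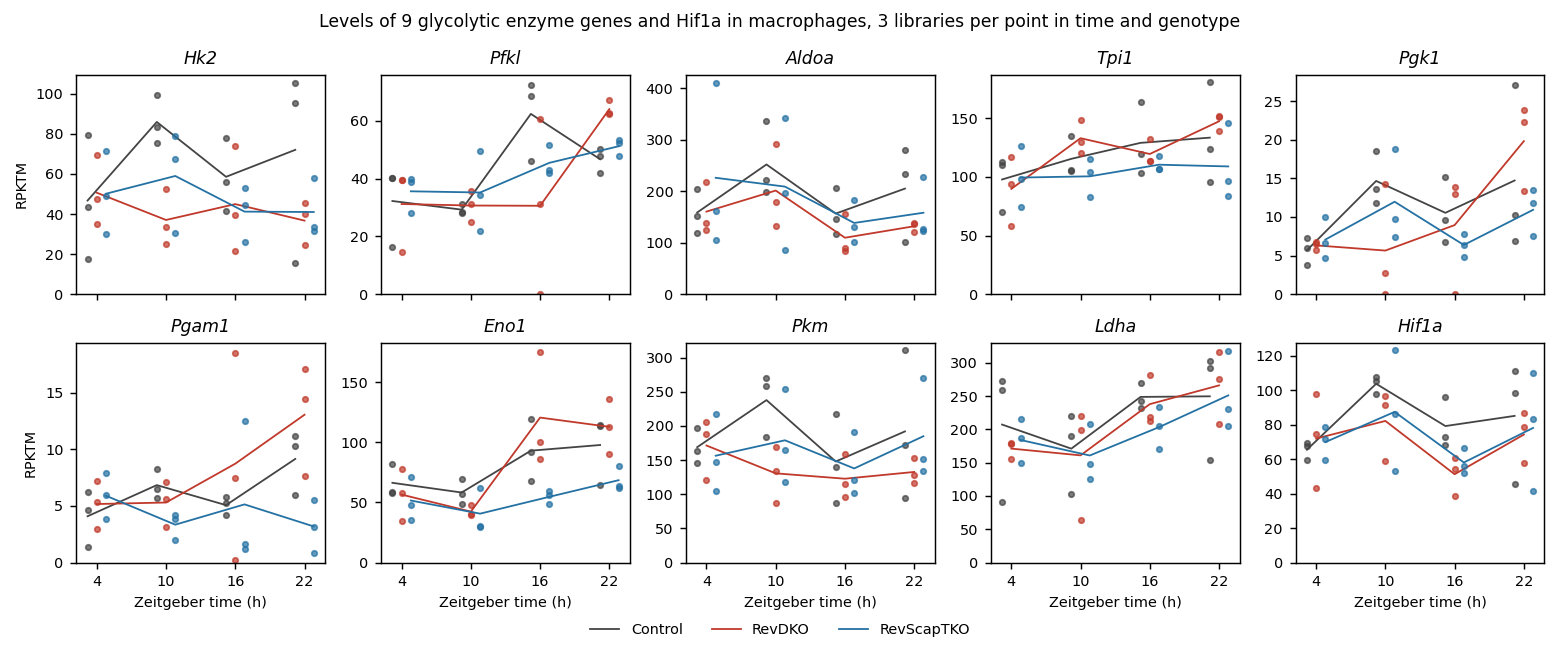
Level in RPKTM (linear axis) of each of the 10 genes against zeitgeber time in macrophages, with 1 point per library, lines through the means of 3 libraries, and colours for Control, RevDKO and RevScapTKO, which are set slightly apart sideways at each time. Control Hk2, Aldoa, Pkm and Hif1a are highest at ZT10, whereas Eno1 of RevScapTKO lies at or below 79.9 RPKTM at every time.

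The first question was whether loss of hepatocyte REV-ERBs was accompanied by a different level of the pathway in macrophages. None of the 10 genes passed the test of the mean level over the 4 times in RevDKO against Control (limma, adjusted p under 0.05), where 0.574% of all genes passed, and none had an unadjusted p under 0.05. The point estimates were lower in RevDKO for 8 of 10, with a median of -0.30 on the log2(RPKTM + 1) scale beside -0.04 over all genes. Hk2 measured 15.7, 76.6 and 105 RPKTM (lowest, median and highest of 12) in Control and 21.4, 39.8 and 73.9 in RevDKO. The 2 groups overlapped over most of their range, and the difference was -0.51 ± 0.28 (log2, SE; limma adjusted p = 0.419). Pkm, the isoenzyme of pyruvate kinase outside liver and red cells, measured 86.6, 178 and 311 in Control and 87.5, 131 and 206 in RevDKO, a difference of -0.37 ± 0.20 (adjusted p = 0.41). Hif1a measured 45.4, 84.6 and 111 in Control and 38.8, 67.5 and 97.8 in RevDKO, a difference of -0.26 ± 0.18 (adjusted p = 0.491).

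The RevDKO means of Hk2, Pkm and Hif1a were below those of Control at 3 of the 4 times, all but ZT4. At ZT10 Hk2 measured 99.1, 83.3 and 75.3 RPKTM in the 3 Control libraries and 24.9, 52.7 and 33.5 in the 3 RevDKO libraries. Pkm measured 259, 271 and 184 in Control against 87.5, 170 and 135 in RevDKO, and Hif1a 105, 108 and 97.97 against 58.7, 96.5 and 91.1. For each of these 3 genes, and for Eno1, all 3 RevDKO libraries were below all 3 Control libraries at ZT10, as they were for 9.05% of all genes. The limma difference was -1.25 ± 0.56 for Hk2 (adjusted p = 0.472) and -0.89 ± 0.40 for Pkm (adjusted p = 0.464), so neither passed over all genes. Across the 40 pairs of a gene and a time, 4 had an unadjusted p under 0.05 in RevDKO against Control and none passed after adjustment, beside 0.00717%, 0.0789%, 0.043% and 0% of all genes from ZT4 to ZT22. The other 2 of these pairs, Pgk1 at ZT10 and Pfkl at ZT16, each rest on a RevDKO library listed at 0. At ZT16, Hif1a was lower in every RevDKO library (38.8, 60.5 and 54.3) than in every Control library (96.3, 72.8 and 68.4). The share of all genes separated in this way at ZT16 is not given here. At the other 2 times its groups overlapped.

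Macrophage markers moved with these genes. The macrophage marker score, the mean of log2(RPKTM + 1) over 14 markers, was 9.28 ± 0.89 (SD, n = 12) in Control macrophage libraries, 8.76 ± 0.84 in RevDKO and 8.81 ± 0.78 in RevScapTKO. Across the 36 libraries, the 10 genes parted in their relation to this score. Pkm had a Pearson r of 0.83 and a Spearman rho of 0.82, Hk2 0.77 and 0.77, Aldoa 0.74 and 0.78, and Hif1a 0.70 and 0.72. Each permutation p was 1e-05, the smallest that 100000 permutations can give, or 5.7e-05 for r after adjustment over the 40 relations computed. Without the 2 libraries farthest from the median score, r was 0.81 for Pkm, 0.71 for Hk2, 0.71 for Aldoa and 0.66 for Hif1a, and the r of the deviations from each group's mean was 0.87, 0.83, 0.73 and 0.74. The other 6 genes had r from -0.32 to 0.01, with no adjusted p of r under 0.05, and among them Pfkl had a rho of -0.45 (permutation p = 0.007, adjusted p = 0.017).

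The hepatocyte marker score gave the opposite order in the same libraries. Eno1 followed it most closely (r = 0.70, rho = 0.68, permutation p = 1e-05, adjusted p = 5.7e-05), then Tpi1 (r = 0.51, rho = 0.51, p = 0.0016, adjusted p = 0.0045) and Ldha (r = 0.43, rho = 0.55, p = 0.01, adjusted p = 0.022). Pkm, Aldoa and Hk2 ran against it, with r of -0.52, -0.42 and -0.37. Within groups the relation of Eno1 was weaker, with an r of its deviations of 0.39, that of Tpi1 was 0.28 and that of Ldha 0.10, while that of Pkm was -0.70. Without the 2 farthest libraries r was 0.68 for Eno1, 0.53 for Tpi1, 0.52 for Ldha and -0.47 for Pkm. Pfkl, listed at 0 in 1 library, had a rho of 0.70 with an r of only 0.29. The 9 enzymes thus did not vary as 1 unit in the macrophage table: the r between pairs of them ran from -0.49 to 0.70, with a median of 0.07, and was above 0 in 20 of 36 pairs.

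**Figure D2:**
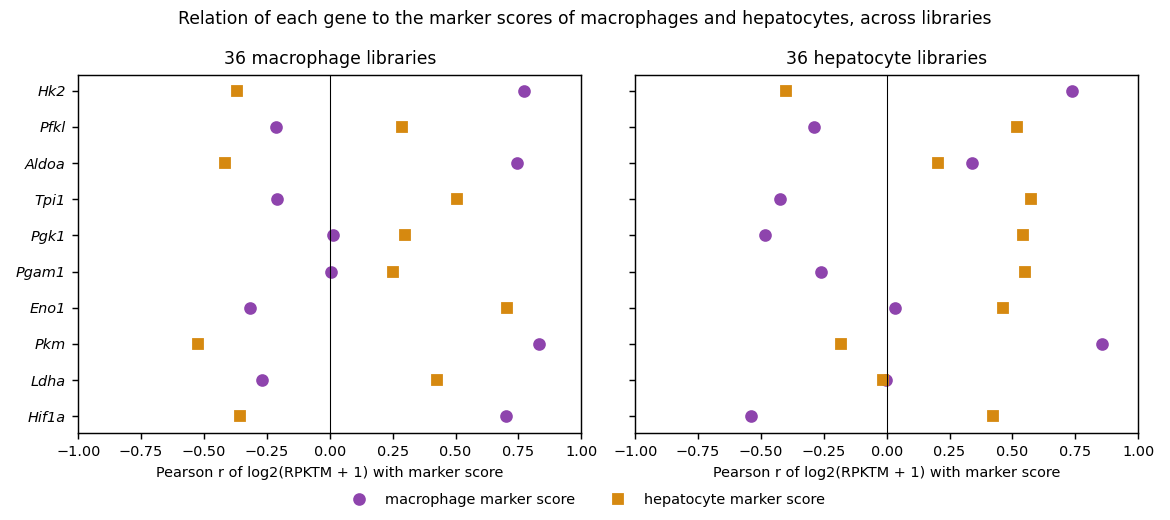
Pearson r across 36 libraries between the log2(RPKTM + 1) of each gene and the marker score of macrophages (circles) and of hepatocytes (squares), with macrophage libraries on the left and hepatocyte libraries on the right. Hk2, Aldoa, Pkm and Hif1a lie at 0.70 to 0.83 with the macrophage score on the left, where Eno1 lies at 0.70 with the hepatocyte score.

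The second question was what changed in macrophages when hepatocytes lacked Scap as well. Eno1 was the lowest-p gene of the 10 in both comparisons that include RevScapTKO, and neither passed. Its levels over 12 libraries (lowest, median, highest) were 48.5, 68.7 and 119 RPKTM for Control, 34.4, 81.9 and 175 for RevDKO, and 29.9, 57.7 and 79.9 for RevScapTKO. The highest RevScapTKO library lay below the median RevDKO library. The difference was -0.54 ± 0.17 against Control (limma adjusted p = 0.0788) and -0.50 ± 0.17 against RevDKO (adjusted p = 0.118), and RevDKO minus Control was -0.04 ± 0.17 (adjusted p = 0.929). These 2 comparisons share the RevScapTKO libraries. In RevScapTKO against Control 0 of 10 genes passed (3.76% of all genes did) and 1, Eno1, had an unadjusted p under 0.05. In RevScapTKO against RevDKO it was again 0 (3% of all genes) and 1, Eno1. Point estimates were lower than in Control for 9 of 10 genes, with a median of -0.18 beside -0.04 over all genes, and lower than in RevDKO for 4 of 10.

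The mean Eno1 of RevScapTKO was below those of Control and of RevDKO at all 4 times. At ZT4 its 3 libraries measured 71.5, 47.8 and 35.3 RPKTM against 58.8, 82.2 and 57.8 in Control, and at ZT10 they measured 30.2, 61.8 and 29.9 against 48.5, 69.4 and 56.7, with overlap at both times. At ZT16 the 3 libraries measured 48.4, 59.3 and 56.1 RPKTM against 67.9, 92.0 and 119 in Control and 86.3, 175 and 99.8 in RevDKO, so RevScapTKO lay below every library of the other genotypes. At ZT22 they measured 61.7, 63.8 and 79.9 against 64.8, 115 and 114 in Control, with overlap. Against the 112, 136 and 90.1 of RevDKO there was no overlap. The share of all genes separated in this way at ZT16 or ZT22 is not given here. At ZT16 the limma difference was -0.72 ± 0.35 against Control (adjusted p = 0.793) and -1.06 ± 0.35 against RevDKO (adjusted p = 0.246). None of the 40 pairs of a gene and a time passed in either comparison (1 and 4 at an unadjusted p under 0.05), beside 0.33%, 0.201%, 0.186% and 0.136% of all genes against Control and 0.172%, 0.151%, 0.215% and 0.301% against RevDKO from ZT4 to ZT22. The hepatocyte marker score, with which Eno1 ran in these libraries, was 9.95 ± 0.54 in RevScapTKO against 10.35 ± 0.44 in Control and 10.41 ± 0.48 in RevDKO (SD, n = 12).
The Eno1 difference from Control sat near the threshold and crossed it under some choices. Without the 3 libraries rich in Alb it was -0.69 (adjusted p = 0.0365), and it also passed when Control ZT22 replicate 1 (adjusted p = 0.0403), RevScapTKO ZT4 replicate 1 (0.0496) or RevScapTKO ZT10 replicate 2 (0.04) was left out. With the hepatocyte marker score as a covariate Eno1 did not pass. In that fit Pkm passed instead, at -0.55 (adjusted p = 0.0326), but Pkm stood at 0.056 without the 3 Alb-rich libraries. Eno1b, an enolase entry that shares sequence with Eno1, averaged 12.9 (Control), 15.99 (RevDKO) and 8.83 RPKTM (RevScapTKO) in macrophages, and reads of the 2 may have been split.

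Time of day was examined next in macrophages. In Control, Hk2, Aldoa, Pkm and Hif1a had their highest mean at ZT10, Pfkl at ZT16 and Eno1, Ldha, Pgam1, Pgk1 and Tpi1 at ZT22. JTK_CYCLE is a rank test for 24 h patterns, to which the 12 libraries were given 2 times in a row, as the study did. It called 2 of 10 genes rhythmic in Control (Pfkl and Eno1), beside 20.2% of all genes. A doubled series lowers p-values although no library is added, and with the series entered once Pfkl alone was called (2.88% of all genes). Control Pfkl measured 40.2, 16.4 and 40.1 RPKTM at ZT4, 28.2, 28.5 and 31.1 at ZT10, 46.1, 72.3 and 68.6 at ZT16 and 42.0, 47.8 and 50.3 at ZT22. Every library of the dark phase was above every library of the light phase. JTK_CYCLE ranks the same values, so this order restates its call. The share of all genes separated in this way is not given here. The 24 h regression gave Pfkl a peak-to-trough amplitude of 1.20 on the log2 scale with a peak at ZT18.2 (unadjusted p = 0.0159, adjusted p = 0.525).

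In RevDKO macrophages 5 of 10 genes were called (Pfkl, Pgk1, Pgam1, Eno1 and Ldha, 28.2% of all genes) and Eno1 alone with the series entered once (5.67%). Of these 5, Pfkl and Pgk1 each had a RevDKO library listed at 0, and Pgam1 averaged only 6.24 RPKTM over the 36 libraries. RevDKO Eno1 measured 57.6, 77.5 and 34.4 RPKTM at ZT4, 47.7, 39.2 and 40.0 at ZT10, 86.3, 175 and 99.8 at ZT16 and 112, 136 and 90.1 at ZT22. All 6 libraries of the dark phase were above all 6 of the light phase. This order too restates the rank call, and the share of all genes separated in this way is not given here. The regression amplitude of Eno1 was 1.75 with a peak at ZT19.5 (unadjusted p = 0.00107, adjusted p = 0.055), against 0.85 in Control, and the difference in rhythm had an adjusted p of 0.891 (limma). No gene of the macrophage table passed for a changed rhythm in RevDKO against Control or in RevScapTKO against RevDKO, and among the 10 genes 1 (Pgk1) and 0 had an unadjusted p under 0.05. The hepatocyte marker score of these libraries also rose into the dark, from 9.93 at ZT4 to 10.25, 10.56 and 10.92 at ZT10, ZT16 and ZT22 in RevDKO, and its part in the Eno1 pattern was not tested. In RevScapTKO macrophages Eno1 and Ldha were called (15.4% of all genes), and none with the series entered once (2.37%).

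Hepatocyte libraries gave another order, in a table that was normalized apart. Ldha stood far above the rest with a mean of 1144 RPKTM (36 libraries), followed by Tpi1 with 429, Hif1a with 200.2, Eno1 with 177 and Aldoa with 126. Pfkl averaged 93.5, Pgk1 51.2, Pkm 38.7 and Pgam1 23.1, and Hk2, the first step of the macrophage pathway, was the lowest with 10.3. Pkm and Hk2 thus took places 8 and 10 of the 10 genes here, and places 3 and 7 in macrophages. As in macrophages, Gapdh was low, with a median of 20.8, or 1.76% of Ldha.

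**Figure D3:**
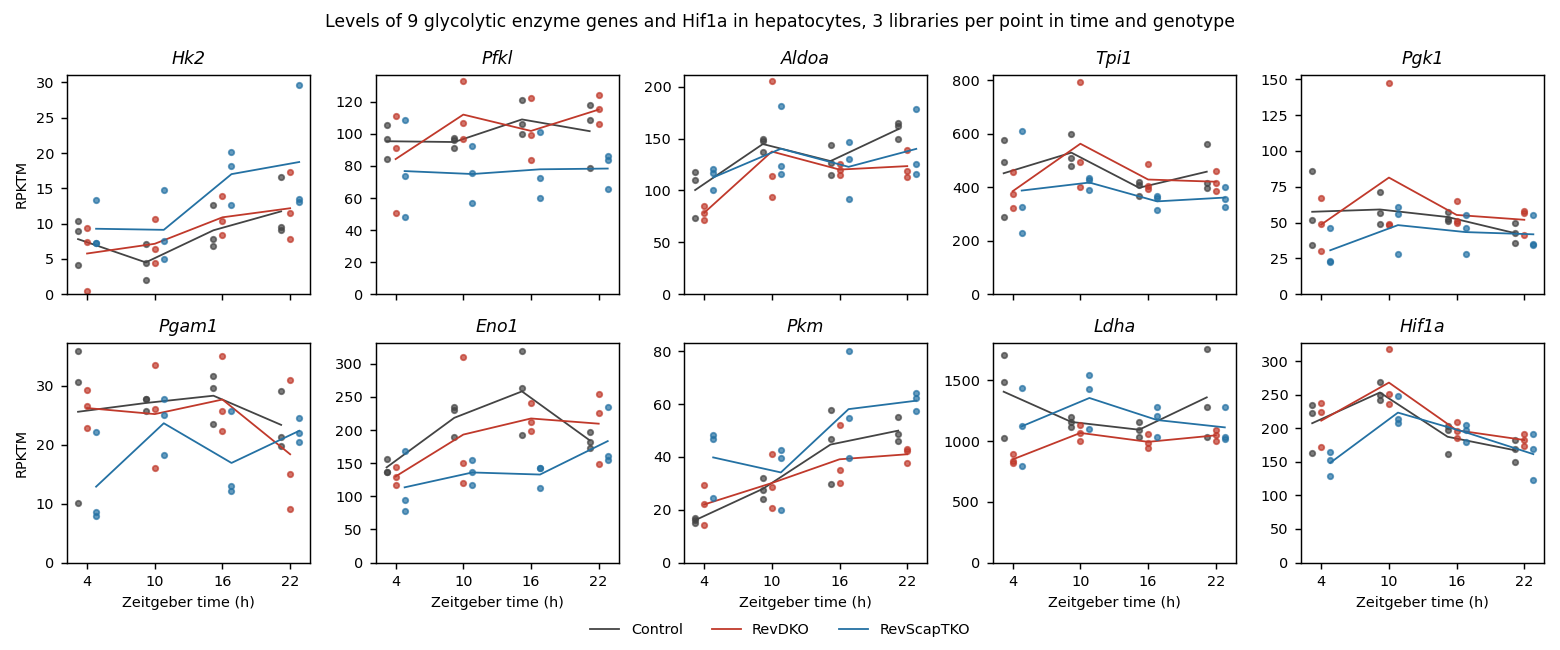
Level in RPKTM (linear axis) of the 10 genes against zeitgeber time in hepatocytes, with 1 point per library and lines through the means of 3 libraries of Control, RevDKO and RevScapTKO. Control Pkm rises from ZT4 to ZT22, and Eno1 of RevScapTKO lies below Control at ZT10 and ZT16.

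In RevDKO against Control hepatocytes none of the 10 genes passed, beside 4.43% of all genes (limma), and 2 had an unadjusted p under 0.05. Ldha was the nearest to the threshold. It measured 1022, 1158 and 1760 RPKTM (lowest, median and highest of 12) in Control and 820, 1001 and 1129 in RevDKO, a difference of -0.32 ± 0.10 (adjusted p = 0.0502). The gap was widest at ZT4. There the 3 RevDKO libraries measured 833, 893 and 820 and the Control libraries 1488, 1708 and 1022, without overlap. The difference was -0.70 ± 0.19 (limma adjusted p = 0.11), with none of the 10 genes and 0.585% of all genes passing at ZT4. The share of all genes without overlap is not given for this or for the hepatocyte comparisons below. The call of Ldha moved with small choices: it passed without any 1 of 6 libraries (adjusted p from 0.0112 to 0.0438). Some of these were RevScapTKO libraries, which are not in this comparison. Leaving out 1 of those kept the difference at -0.32 and moved only its p-value. Aldoa was the other gene, at -0.23 ± 0.11 (unadjusted p = 0.0482, adjusted p = 0.293).

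In RevScapTKO hepatocytes some of the 10 genes were lower and Pkm was higher. Against Control, 3 of 10 genes passed, beside 35.9% of all genes: Eno1 and Pfkl were lower and Pkm was higher. Against RevDKO, 5 passed, beside 26.2%: Eno1, Pfkl, Pgk1 and Hif1a were lower and Pkm was higher. The median difference of the 10 genes was -0.23 against Control and -0.25 against RevDKO, beside -0.04 and -0.03 over all genes. By direction, 17.3% of all genes were higher and 18.7% lower against Control, and 13.5% and 12.7% against RevDKO. The share of the 10 genes lay below the background against Control and above it against RevDKO. The 2 comparisons share the RevScapTKO libraries.

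Eno1, which forms phosphoenolpyruvate, measured 137, 191 and 320 RPKTM (lowest, median, highest of 12) for Control, 116, 174 and 310 for RevDKO and 77.6, 143 and 235 for RevScapTKO hepatocytes. Its difference was -0.52 ± 0.13 against Control (limma adjusted p = 0.00348) and -0.39 ± 0.13 against RevDKO (0.032). At ZT16 it measured 142, 143 and 113 in RevScapTKO against 192, 264 and 320 in Control, without overlap (-0.93 ± 0.27, adjusted p = 0.0487). At ZT10 the groups did not overlap either, with 117, 154 and 137 against 190, 235 and 230 (adjusted p = 0.161). Eno1b, which shares sequence, was lower in the same direction, with means of 44.3, 42.8 and 25.7 in Control, RevDKO and RevScapTKO. Eno1 lies at chr4:149611306-149622982 (mm9, plus strand) in the files.

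Pfkl, the liver-type subunit of the committed step, measured 79.0, 98.8 and 121 RPKTM for Control, 50.4, 106 and 133 for RevDKO and 47.9, 74.7 and 108 for RevScapTKO hepatocytes. The difference was -0.40 ± 0.13 against Control (adjusted p = 0.0159) and -0.42 ± 0.13 against RevDKO (0.0169). At ZT10 and at ZT22 each RevScapTKO library was below each RevDKO library. Pgk1, the first step that yields ATP, measured 30.1, 50.5 and 147 in RevDKO and 22.7, 40.7 and 60.6 in RevScapTKO, with wide overlap and a difference of -0.49 ± 0.19 (adjusted p = 0.0488). Hif1a measured 172, 203 and 318 in RevDKO and 123, 186 and 248 in RevScapTKO, a difference of -0.24 ± 0.09 (adjusted p = 0.0345). It was lowest at ZT4, where RevScapTKO libraries measured 164, 129 and 152 and RevDKO libraries 224, 238 and 172, without overlap (-0.50 ± 0.17, adjusted p = 0.0608).

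Pkm ran the other way. It measured 14.9, 30.9 and 57.8 RPKTM for Control, 14.2, 32.5 and 52.3 for RevDKO and 20.02, 47.5 and 79.98 for RevScapTKO hepatocytes, a difference of 0.52 ± 0.16 against Control (adjusted p = 0.0101) and 0.52 ± 0.16 against RevDKO (0.0136). At ZT4 it measured 24.5, 48.3 and 46.8 in RevScapTKO against 14.9, 16.3 and 17.0 in Control, without overlap (1.20 ± 0.31, adjusted p = 0.00842). At ZT22 the groups were also apart, with 57.4, 62.3 and 64.3 against 55.3, 46.1 and 48.5. Hk2, low in hepatocytes, pointed in the same direction without passing, from 8.35 in Control to 13.2 in RevScapTKO (medians of 12), a difference of 0.64 ± 0.26 (adjusted p = 0.0571). Over the 40 pairs of a gene and a time, these ZT4 and ZT16 differences of Pkm and Eno1 were the 2 that passed against Control, beside 18.9%, 4.35%, 3.24% and 3.62% of all genes from ZT4 to ZT22. Against RevDKO none passed and 7 had an unadjusted p under 0.05 (9.28%, 0.908%, 1.37% and 2.35%). The 2 annotated Pkm transcripts have the same length and the M1 and M2 forms cannot be told apart here.

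**Figure D4:**
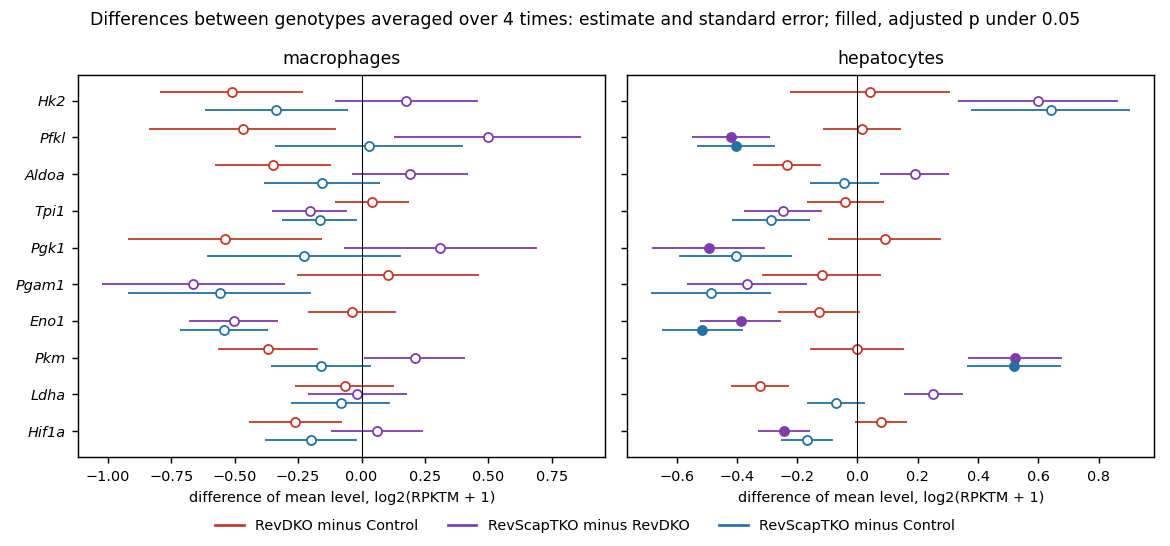
Difference of the mean level over 4 times on the log2(RPKTM + 1) scale, with its standard error as a horizontal bar, for 3 comparisons in macrophages (left) and hepatocytes (right), where filled points have an adjusted p under 0.05. No point is filled on the left, and on the right Pkm lies at 0.52 in both comparisons of RevScapTKO while Eno1 lies at -0.52 and -0.39.

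Markers of macrophages, stellate cells and endothelial cells were higher in RevScapTKO hepatocyte libraries. The 4 B cell markers were near the floor and not higher, with median sums of 3.87 (Control), 3.78 (RevDKO) and 3.64 RPKTM (RevScapTKO). The 14 macrophage markers, of which Cd14 was listed at 0 in 3 and Fcgr1 in 1 of 36 libraries and no other in any, summed to 265 to 3471 RPKTM in Control (median 969), 458 to 2663 in RevDKO (1199) and 1045 to 6772 in RevScapTKO (3200). The 7 stellate cell markers had medians of 818, 1123 and 2540, and the 8 endothelial markers 1308, 1509 and 2409. Pkm ran with the macrophage score across the 36 hepatocyte libraries (r = 0.86, rho = 0.89, r = 0.83 without the 2 farthest, r of deviations 0.54, permutation p = 1e-05), as did Hk2 (0.74, 0.76, 0.69 and 0.56, p = 1e-05). Hif1a and Pgk1, lower in RevScapTKO than in RevDKO, had r of -0.54 and -0.48 (permutation p = 0.00072 and 0.0024, adjusted p = 0.0029 and 0.0065), and r of deviations of -0.20 and -0.58. Eno1 had an r of 0.03. Pgk1, Pfkl, Eno1 and Hif1a ran with the hepatocyte score (r = 0.54, 0.52, 0.46 and 0.42). Their adjusted permutation p was 0.0031, 0.0045, 0.011 and 0.022, and their r of deviations 0.30, 0.34, 0.12 and 0.07. Tpi1 (0.57) and Pgam1 (0.55) also ran with it, and Hk2 ran against it (-0.40). That score was 13.09 ± 0.23 (SD, n = 12) in RevScapTKO, 13.32 ± 0.17 in Control and 13.30 ± 0.15 in RevDKO hepatocyte libraries. Its part in these differences was not tested.

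With the macrophage score as a covariate none of the 10 genes passed in RevScapTKO against either genotype. The share of all genes passing in that fit is not given here, so this count shows nothing particular to the 10 genes. Pkm stood at 0.08 against Control (adjusted p = 0.881) and 0.10 against RevDKO (0.901), and Hk2 stood at -0.15 against Control. Pfkl stood at -0.12 and -0.15 and Pgk1 at 0.071 against RevDKO. Eno1 stood at -0.50 against Control (adjusted p = 0.139) and -0.37 against RevDKO (0.446). Leaving out single libraries moved less. Over 36 fits the calls of Eno1, Pfkl and Pkm against Control and of Pfkl and Pkm against RevDKO were kept, while against RevDKO those of Eno1, Hif1a and Pgk1 were lost in 10, 9 and 25 fits. RevDKO ZT10 replicate 2, with the highest Eno1 (310), Pgk1 (147), Hif1a (318) and Tpi1 (792 RPKTM) of its genotype, ended all 3 when left out (adjusted p = 0.0779, 0.12 and 0.0729). The ZT16 call of Eno1 was lost in 25 of 36 fits, and the ZT4 call of Pkm without RevScapTKO ZT4 replicate 2 (0.059) or replicate 3 (0.056). Most of the fits that lost the ZT16 call left out a library outside the 2 groups compared and kept the difference at -0.93. Some of the fits that lost Pgk1 left out a Control library and kept its difference at -0.49. In such fits only the p-value moved.

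**Figure D5:**
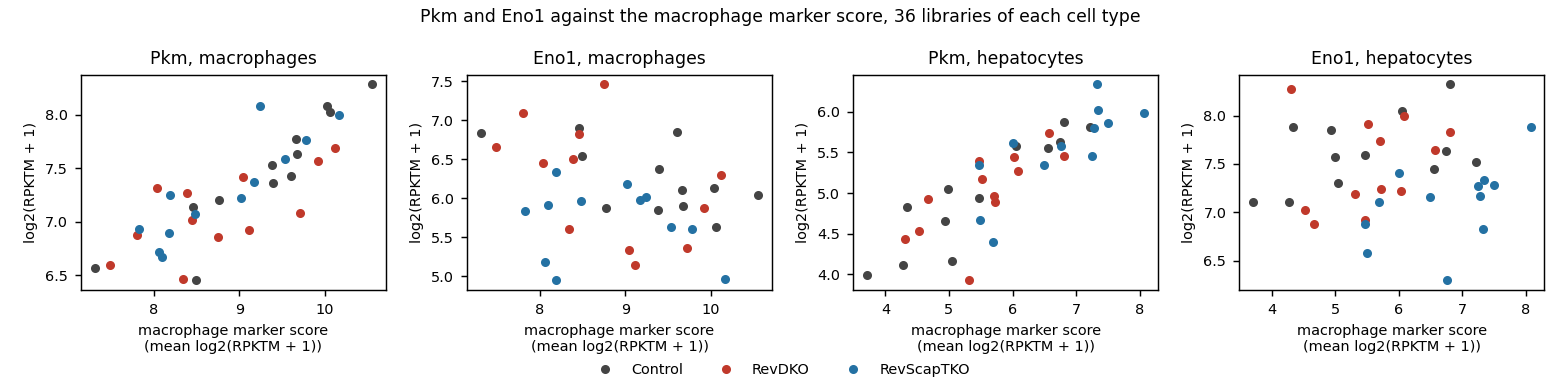
Level of Pkm and Eno1 in log2(RPKTM + 1) against the macrophage marker score of the same library, 36 macrophage libraries in the left pair of plots and 36 hepatocyte libraries in the right pair, coloured by genotype. Pkm rises with the score in both cell types (r = 0.83 and 0.86), and Eno1 does not (r = -0.32 and 0.03).

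The time course in hepatocytes showed Pkm and Eno1 with the clearest patterns. JTK_CYCLE called 4 of 10 genes in Control (Hk2, Eno1, Pkm and Hif1a, 29.0% of all genes), and 3 with the series entered once (Eno1, Pkm and Hif1a, 11.0%). Control Pkm measured 14.9, 16.3 and 17.0 RPKTM at ZT4, 32.2, 27.5 and 24.1 at ZT10, 29.6, 46.7 and 57.8 at ZT16 and 55.3, 46.1 and 48.5 at ZT22. The 3 libraries of ZT4 were the lowest of the 12, an order that the rank call already uses. The share of all genes with such an order is not given here. The 24 h regression gave Pkm an amplitude of 1.60 with a peak at ZT18.1 (adjusted p = 0.00379). The macrophage score of the same Control hepatocyte libraries ran 4.34, 4.76, 6.11 and 6.84 from ZT4 to ZT22, and its part in the Pkm pattern was not tested.

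Control Eno1 in hepatocytes measured 137, 137 and 157 RPKTM at ZT4, 190, 235 and 230 at ZT10, 192, 264 and 320 at ZT16 and 182, 174 and 198 at ZT22. It was lowest at ZT4, with an amplitude of 0.85 and a peak at ZT14.9 (adjusted p = 0.0239). Control Hif1a peaked earlier, with 236, 223 and 164 at ZT4, 242, 269 and 249 at ZT10, 203, 162 and 197 at ZT16 and 169, 149 and 183 at ZT22. Every ZT10 library was above every other library, and the amplitude was 0.62 with a peak at ZT9.1 (adjusted p = 0.0714). The order of these libraries restates the rank call of Hif1a, and the share of all genes with such an order is not given here. In RevDKO hepatocytes Hk2, Aldoa, Eno1 and Pkm were called (29.7% of all genes) and in RevScapTKO Hk2, Pkm and Hif1a (20.8%), with none in RevDKO when the series was entered once (9.25%). The 24 h regression at an unadjusted p under 0.05 called 4, 2, 3 and 3 of 10 genes in Control, RevDKO, RevScapTKO and ScapKO hepatocytes (26.2%, 25.7%, 11.1% and 14.6% of all genes) and 1, 1, 0 and 1 in macrophages (8.2%, 13.5%, 5.1% and 10.1%). After adjustment Pkm and Eno1 of Control hepatocytes alone remained (9.84%), with none in the other hepatocytes (6.01%, 0% and 1.85%) or in macrophages (0%, 1.79%, 0.00823% and 0%). None of the 10 genes passed for a changed rhythm or had an unadjusted p under 0.05 for one in hepatocytes (0.203% of all genes passed in RevDKO against Control, 0 genes in RevScapTKO against RevDKO).

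Other genes of glucose handling and of the HIF pathway, were taken from lists. The shares of all genes that passed in each comparison, given above, are repeated here as the background. In RevDKO against Control macrophages none of 21 other glycolytic genes (isoenzymes, transporters and regulators), 13 liver-type glucose enzymes and 22 HIF pathway genes that could be tested passed (limma, 0.574% of all genes), with 2, 5 and 3 at an unadjusted p under 0.05. In RevScapTKO macrophages, where 3.76% of all genes passed against Control and 3% against RevDKO, 1 and 2 of the other glycolytic and 1 and 2 of the liver-type genes passed. Pdk1, a kinase that inhibits pyruvate dehydrogenase, was lower than in Control (-0.87 ± 0.22, adjusted p = 0.0194) and than in RevDKO (-0.96 ± 0.22, 0.00997). So was Fbp1, the gluconeogenic fructose bisphosphatase, at -0.70 ± 0.18 (0.0219) and -0.93 ± 0.18 (0.00157). Against RevDKO, Aldoc (-1.48, adjusted p = 0.0426) and Pdk2 (-0.78, 0.0478) were lower too. These libraries held hepatocyte RNA, with the hepatocyte scores of 9.95 in RevScapTKO, 10.35 in Control and 10.41 in RevDKO given above, and in RevScapTKO hepatocytes the same 4 genes were lower than in Control (Aldoc -2.76, Pdk1 -1.54, Pdk2 -0.66 and Fbp1 -0.65). The part of hepatocyte RNA in these calls was not tested. No HIF pathway gene passed in macrophages, with 2 and 1 at an unadjusted p under 0.05 in the 2 comparisons.

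In RevScapTKO hepatocytes against Control, 3 of 18 other glycolytic genes were higher and 6 lower, beside 17.3% and 18.7% of all genes. Aldoc, the brain-type aldolase, was lower by the most (-2.76 ± 0.19, adjusted p = 1.01e-12), followed by Pdk1 (-1.54 ± 0.18, 5.43e-08) and Gapdh (-0.93 ± 0.26, 0.00653), and the phosphoglucomutase Pgm1 was higher (0.93 ± 0.17, 6.59e-05). Pgm2 (-0.59), Bpgm (-0.54) and the glucose transporter Slc2a1 (-0.54) were lower and the hexokinase Hk3 (0.68) was higher. Of 13 liver-type genes 2 were higher, among them Pck1 (0.60), and 6 lower, among them Pklr (-1.30 ± 0.27, 0.000375), Fbp1 (-0.65), Pdk2 (-0.66), Pfkfb1 (-0.54) and Khk (-0.61), with a list median of -0.51 beside -0.04 over all genes. Against RevDKO 10 of these 13 were lower and 1 higher, with a median of -0.58 beside -0.03, where 12.7% of all genes were lower and 13.5% higher. Pklr (-1.37), Pfkfb1 (-0.87), Khk (-0.79), Fbp1 (-0.68), Pdk2 (-0.58) and Pcx (-0.39) were among the lower ones, and Pck1 (0.80) was the higher one. Of the 18 other glycolytic genes 3 were lower (Aldoc -2.64, Pdk1 -1.56 and Pgm2 -0.42) and 3 higher (Pfkfb3 0.90, Hk3 0.69 and Hk1 0.67). The part of the lower hepatocyte score of RevScapTKO hepatocyte libraries in the liver-type values was not tested.

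Of 21 HIF pathway genes in hepatocytes, 2 were higher and 5 lower in RevScapTKO than in Control, and 3 higher and 2 lower than in RevDKO. That is 7 of 21 against Control, near the 35.9% of all genes, and 5 of 21 against RevDKO, near the 26.2%, so these counts show nothing particular to the list. The oxygen sensors Egln3 (-0.80 ± 0.18, adjusted p = 0.00114) and Egln2 (-0.44 ± 0.10, 0.00124), the stress gene Ddit4 (-1.37 ± 0.33, 0.00196) and Epas1 (-0.35 ± 0.10, 0.00902), which encodes HIF-2α, were lower than in Control, as was Ak4 (-0.78, 0.00138). Arnt, which encodes the partner of HIF-1α, was higher (0.35 ± 0.14, 0.0451). Against RevDKO, P4ha1 (0.64), P4ha2 (0.51) and Arnt (0.44) were higher and Ddit4 (-0.99) and Ak4 (-0.53) lower. Ndrg1 was higher in RevDKO (1.56 ± 0.20, 1.38e-06) and in RevScapTKO (1.70 ± 0.20, 6.61e-08) than in Control, 2 comparisons that share the Control libraries. In RevDKO against Control it was the only gene of its list to pass, with Pgm1 (0.59 ± 0.17, 0.0339) and Pcx (0.33 ± 0.10, 0.0405) the only ones of theirs (4.43% of all genes passed). At single times, Slc16a1, a lactate transporter, was higher at ZT10 in RevDKO and in RevScapTKO than in Control (0.94 and 1.12). These 2 comparisons share the Control libraries. The share of all genes passing at ZT10 in RevDKO against Control is not given here. At ZT4 in RevScapTKO against Control, Bnip3l was lower (limma adjusted p = 0.00656) and P4ha1 (1.38) and P4ha2 (0.95) were higher, beside 18.9% of all genes. The list medians lay at -0.12 and -0.20 for the HIF pathway in RevScapTKO against Control and RevDKO, beside -0.04 and -0.03 over all genes.

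The ScapKO libraries were described apart, since no Control shares their tables. In ScapKO macrophages, where the summed macrophage markers (median 130069 RPKTM) exceeded the hepatocyte markers (50890), Pkm was highest with a mean of 1343, followed by Ldha with 1200, Aldoa with 1187, Eno1 with 709, Hk2 with 667, Tpi1 with 411 and Hif1a with 359. Pfkl averaged 216, Pgk1 137 and Pgam1 24.2. Of the 10 genes, 8 had their highest mean at ZT10. Hk2 measured 627, 454 and 680 at ZT4, 924, 929 and 758 at ZT10, 483, 778 and 873 at ZT16 and 735, 83.6 and 685 at ZT22. Hif1a measured 306, 284 and 303 at ZT4, 379, 413 and 537 at ZT10, 383, 399 and 403 at ZT16 and 355, 210 and 335 at ZT22.

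The low value at ZT22 belongs to replicate 2, which stood apart. It was below all 11 other libraries for 8 of the 10 genes (not for Pfkl and Pgam1), with summed macrophage markers of 24771 against 90340 to 151204 and endothelial markers of 16808 against 4121 to 8359. JTK_CYCLE called Hk2, Aldoa and Pkm in ScapKO macrophages (21.4% of all genes) and none with the series entered once (3.55%). Leaving out 1 library at a time gave 0 to 6 calls. In ScapKO hepatocytes, which the labels name once as hepatocytes and once as macrophages, the 14 macrophage markers had a median sum of 941 and the 15 hepatocyte markers 1227370. The means there were 3598 for Ldha, 976 for Tpi1, 822 for Eno1, 318 for Pgk1, 318 for Aldoa and 287 for Hif1a, with Pkm at 38.5 and Hk2 at 7.18 again among the lowest. Aldoa, Eno1 and Ldha were called there (19.1% of all genes), and Ldha alone with the series entered once (4.9%).

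By likeness across the 36 libraries, the genes whose pattern was closest to the mean of the 9 standardized enzymes in macrophages were Tmem14c (r = 0.84), Dhrs7 (0.81), Scpep1 (0.78), Cct8 (0.78) and Arf1 (0.76). Those closest to Hif1a were Rasa1 (0.89), Sept2 (0.88), Cltc (0.88), Arpc5 (0.86) and Ptbp3 (0.86). In hepatocytes they were Tle5 (0.80), Fam20b (0.80), Rps2 (0.79), Tmem37 (0.79) and Pink1 (0.78) for the enzymes, and Dld (0.83), Atp6v1d (0.80), Immt (0.80), Mtx2 (0.80) and Atp6v1e1 (0.79) for Hif1a. These are descriptions over libraries that share the marker differences given above. The enzymes of hepatocytes were also loosely related to each other, with an r between pairs from -0.35 to 0.61, a median of 0.16 and 24 of 36 pairs above 0.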

How the data were processed

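Hepatocytes and liver macrophages of 4 labelled genotypes were profiled by RNA sequencing. Per the labels and methods, the authors removed ribosomal RNA, made stranded libraries, used STAR for alignment to mm9 and HOMER for counts per RefSeq transcript. Versions, use of strand in counting and treatment of shared reads are not given in the sources used here. The deposited values are RPKTM (RPKM multiplied by 10), quantile normalized within each of 4 tables (36 libraries of Control, RevDKO and RevScapTKO and 12 of ScapKO, for each cell type), so depth and absolute amount are lost and precision rests on replicates alone. A change shared by most transcripts cannot be seen. Tests were run only within a table.

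Samples were grouped by their titles. For each symbol the transcript of highest mean was used, and genes were kept where 3 libraries exceeded 5 RPKTM. Values of the 36 libraries per cell type, as log2(RPKTM + 1), were fitted with limma 3.58.1 (R 4.3.3; trend; 1 mean per genotype and time), and p-values were adjusted by Benjamini and Hochberg over all genes, with a threshold of 0.05. This scale understates changes of low genes. JTK_CYCLE was rewritten in Python 3.11.15 (numpy 2.4.6, scipy 1.17.1): periods of 18 h and 24 h, a highest to lowest ratio over 1.5, and p multiplied by the 7 patterns tried. The 24 h regression fitted cosine and sine terms, and amplitudes are peak to trough. Methods were tested on simulated data. Relations to marker scores used 100000 two-sided permutations.

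All 10 genes are named. Of the 3 other lists, the rule was to name genes past the threshold, at most 8 per list and comparison. Those for mean levels are given with values, and of those at single times only the ones not already named. The 10 genes and all lists were chosen with earlier results of these data known. Alternatives covered pseudocounts, filters, transcripts, tool settings, a replicate block, marker scores as covariates and leaving out libraries. Some items are not reported here. Numbers in parentheses in the ScapKO column names were not used.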

Additional observations from a re-analysis of the deposited data

How the results depend on the processing

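Counts of called genes moved with several choices, and the cause was not tested unless a choice itself removes samples. For mean levels in hepatocytes, RevDKO against Control gave 1 gene (Ldha) in place of 0 with a stricter filter, with only the 2 genotypes compared, with the macrophage marker score as a covariate and with the mean of all transcripts. With that covariate, RevScapTKO gave 0 genes against RevDKO (5 before) and 0 against Control (3 before). The share of all genes passing with that covariate is not given here. In macrophages, RevScapTKO against Control gave 1 in place of 0 with a replicate block (Eno1), with the hepatocyte score as a covariate (Pkm) and without the libraries in which Alb takes over 10% (Eno1). The labels give no shared litter, day or batch for equal replicate numbers. The r of their deviations exceeded 0.1 in 3 to 8 of 12 pairs, not in all, so no pairing was assumed. Still, 6 to 8 of 12 libraries correlated best with their own number, more than random matching among 3 libraries gives on average. Whether equal numbers share a day or batch was not tested. With the replicate block, RevScapTKO against Control hepatocytes gave 6 genes (Eno1, Hk2, Pfkl, Pgam1, Pkm and Tpi1) in place of 3, and RevScapTKO against RevDKO 1 pair of a gene and a time in place of 0, as it also did with no filter on low values. Pairs of RevScapTKO against Control hepatocytes, 2 before, were 1 with a pseudocount of 0.1, 1 without the trend and 0 with the covariate, and RevDKO against Control gave 1 with only the 2 genotypes compared.

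Rhythm calls moved with the method. With the series entered once, they were 1, 1, 0 and 0 of 10 in Control, RevDKO, RevScapTKO and ScapKO macrophages and, in hepatocytes, 0 in RevDKO, 0 in RevScapTKO and 1 in ScapKO. The 24 h regression at an unadjusted p gave 1, 1, 0 and 1 in macrophages and 2 in RevDKO hepatocytes, and at an adjusted p 2 in Control hepatocytes and 0 elsewhere. With a replicate block the regression gave 2 in RevDKO, 0 in RevScapTKO and 1 in ScapKO macrophages. With no minimum ratio JTK_CYCLE called 6 in ScapKO macrophages.

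Leaving out 1 library at a time, calls of mean levels in hepatocytes ranged from 0 to 1 (RevDKO against Control), 2 to 6 (RevScapTKO against RevDKO) and 3 to 8 (RevScapTKO against Control), and in macrophages from 0 to 1 (RevScapTKO against Control). Pairs of a gene and a time ranged from 0 to 1 in macrophages for RevDKO against Control and RevScapTKO against RevDKO, and from 0 to 1, 0 to 3 and 1 to 6 in the 3 hepatocyte comparisons. Rhythm calls ranged from 2 to 4, 1 to 8, 0 to 3 and 0 to 6 in Control, RevDKO, RevScapTKO and ScapKO macrophages and from 3 to 5, 2 to 5, 1 to 3 and 1 to 4 in hepatocytes. Directions turned for Pkm in RevScapTKO against Control macrophages (0.056 without the Alb-rich libraries), for Pgk1 against RevDKO (0.071) and Hk2 against Control (-0.15) in RevScapTKO hepatocytes with the covariate, and for Eno1 in RevDKO against Control macrophages, which ranged from -0.11 to 0.040. In all, 160 of 200 recomputed counts stayed within 1.5 times the value given and 164 of 196 single differences kept their direction and their side of the threshold, as did 598 of 672 and 657 of 756 when 1 library was left out. Depth is unknown, so no limit of detection can be set for Pgk1, Pgam1 or Hk2.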

Other observations

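Some genes with copies differed in level beside Ldha between the 2 macrophage tables. Pgk1 and Pgam1 took places 9 and 10 of the 10 genes in both. As a share of Ldha in the same library, the median of Gapdh was 3.20% in the table of 3 genotypes and 54.7% in the ScapKO table, that of Pgk1 4.18% and 12.2%, and that of Eno1 32.2% and 60.5%, whereas Tpi1 had 54.2% and 34.6% and Pgam1 2.62% and 2.24%. Eno1b was listed at 0 in 10 of 12 ScapKO macrophage libraries and in 2 of 36 of the other table. In hepatocytes Gapdh had 1.76% of Ldha in the table of 3 genotypes and 39.0% in the ScapKO table, Pgk1 4.34% and 8.49%, and Eno1b was listed at 0 in none of 36 and in 9 of 12 libraries. Tables and genotypes cannot be told apart here, and the part of read counting in these values was not tested.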
